A study of Cyanidioschyzon merolae with 29 samples.

Results

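Untreated cultures of *Cyanidioschyzon merolae* strain NIES-3377 on day 5 were compared with untreated cultures on day 0, across every gene with enough counts. The comparison held 6 of the 29 libraries of the series. The day 5 libraries carried the culture labels C3, C4 and C5, and the day 0 libraries the labels C1, C2 and C4; values below are given in that order. All 6 came from cells with no added nickel (Ni 0 mM), grown in a modified Allen medium that is hot and acidic, with shaking under continuous white light. Each experiment began when a stock inoculum was mixed with medium to a fixed optical density, so the comparison addressed what the alga's transcripts did over the first days after dilution, without metal. How long the cells had stood in the new medium when the day 0 sample was taken is not given in the sources used here. The other untreated libraries were from days 10 and 15, 3 on each, and the remaining libraries were from cultures at 1 or 3 mM NiSO4. RNA was selected by its poly(A) tail, and reads were counted on 4984 genes, of which 4796 passed the filter on low counts.

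*C. merolae* is a single-celled red alga of hot, acidic springs. Each cell holds a nucleus, a mitochondrion and a chloroplast, each of which has its own genome, and divides by splitting both organelles before the cell itself. Algal cells moved to fresh medium commonly pass through a lag, then divide fast, and slow again as nutrients or light per cell become short. Genes for ribosomes, carbon fixation and the cell cycle are the ones whose transcripts are most often followed through such growth. The libraries were bulk samples, so a value is a share of the RNA of a whole culture, and a change in the number of cells at a stage cannot be told apart from a change in RNA per cell. Locus names follow the deposited table, with descriptions and coordinates from the RefSeq assembly ASM9120v1 of strain 10D.

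Total counts were 2979717, 2818860 and 2797232 in the day 5 libraries, and 3356050, 3121668 and 3032714 in the day 0 libraries. Values are CPM, a gene's counts as a share of its library scaled to a fixed total, on library sizes corrected by the trimmed mean of M-values (TMM), whose factors were 0.95 to 1.00 on day 5 and 0.81 to 0.82 on day 0. Chloroplast genes took 3.84% to 5.75% of counts on day 5 and 3.82% to 4.39% on day 0, so every library held chloroplast RNA, as its label (algal cell) implies. The 3 day 5 libraries were not alike. C4 and C5 differed by a root mean square of 0.274 on the log2 scale over all genes tested, while C3 differed from them by 0.766 and 0.724. From the day 0 libraries C3 differed by 0.666 to 0.705, and C4 and C5 by 0.857 to 0.982. On the first principal component of the 6 libraries, which held 69.2% of the variance, C3 of day 5 lay between the days. On day 0, C1 and C2 differed by 0.261, and C4 from them by 0.545 and 0.540. For many results, values without C3 of day 5 are therefore given too, but not for every gene or group. In the series, 5 samples that the sources do not name had an extra RNA purification, and its part in these values was not tested.

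**Figure D1:**
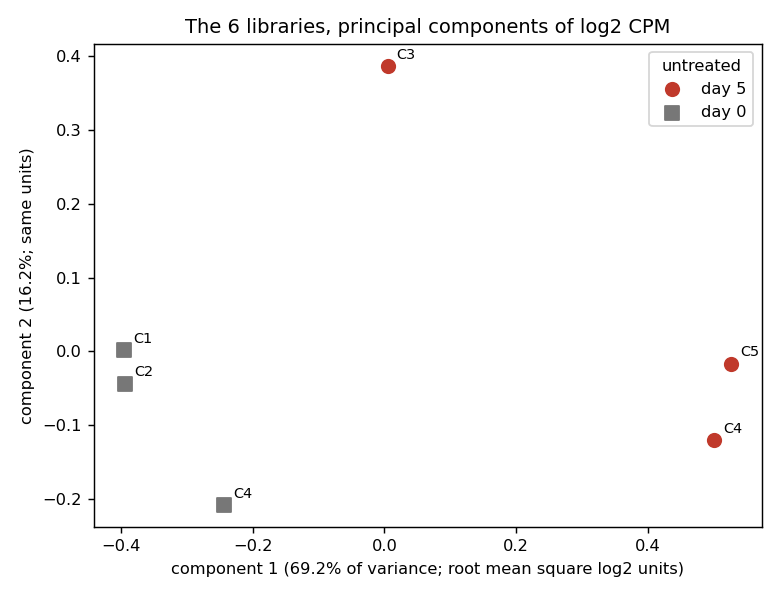
The 6 libraries on the first (horizontal, 69.2% of variance) and second (vertical, 16.2%) principal components of log2 CPM, in root mean square log2 units. Circles are day 5 and squares day 0, each with its culture label; C3 of day 5 lies between the other day 5 libraries and the day 0 libraries on the first component and at the top of the second.

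On day 5, 974 genes were higher and 930 lower than on day 0 (edgeR quasi-likelihood test fitted on all 29 libraries, Benjamini-Hochberg adjusted p under 0.05; these genes are called DEGs below). That is 39.7% of the 4796 genes tested, with 20.3% higher and 19.4% lower. A fit on the 6 compared libraries alone called fewer, 364 higher and 569 lower, and a fit on the 12 untreated libraries called 432 higher and 640 lower. The median log2 fold change was 0.81 among higher DEGs and -0.82 among lower DEGs, against 0.06 over all genes tested. A change of over 2-fold was seen for 357 higher and 319 lower DEGs. In 743 of the higher and 808 of the lower DEGs the 3 libraries of day 5 did not overlap those of day 0; over all genes tested such separation was seen in 42.4%. The lower DEGs had the higher counts, with a median of 211 CPM over the 6 libraries, not corrected for gene length, against 98.2 CPM for higher DEGs and 101 CPM for genes not called. Higher DEGs were the longer, with a median gene length of 1550 bases, against 1174 for lower DEGs and 1254 for genes not called. No description was given for 52.7% of higher DEGs, 30.1% of lower DEGs and 41.9% of genes not called. Lower DEGs made up 29.5%, 19.5% and 18.8% of all counts on day 5, against 40.8%, 41.3% and 39.0% on day 0. Higher DEGs took 14.3%, 19.6% and 20.6% on day 5, against 8.10%, 7.86% and 8.83% on day 0.

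At the median of the DEGs, C3 changed in the same direction as C4 and C5 and by less. The DEGs were called with C3 among the day 5 libraries, so a shared direction is partly built in. Not all of C3 followed that pattern: on the second principal component it lay at 0.387, against -0.120 in C4 and -0.0167 in C5. DNA replication genes had a median of 1.46 (log2, relative to day 0) in C3, against 0.41 and 0.56 in C4 and C5. Relative to the day 0 mean, the higher DEGs stood at a median of 0.49 (log2) in C3 and 0.86 in the mean of C4 and C5, and the lower DEGs at -0.49 in C3 and -1.01 in the mean of C4 and C5. In 245 higher and 114 lower DEGs it was C3 that had the larger change. Without C3 of day 5, 1165 genes were higher (24.3%) and 1079 lower (22.5%). When each of the 6 libraries was left out in turn, 525 higher and 581 lower DEGs were called every time. A count given below as without a library comes from the fit that left out that library alone, and is given where it moved by over 1.5 times. By chromosome, the share of genes called higher ran between 12.1% on chromosome 3 and 28.7% on chromosome 2. The study describes its cultures as independent biological replicates, and the p-values rest on a spread pooled over all 29 libraries, nickel and later days included, with 19 residual degrees of freedom.

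**Figure D2:**
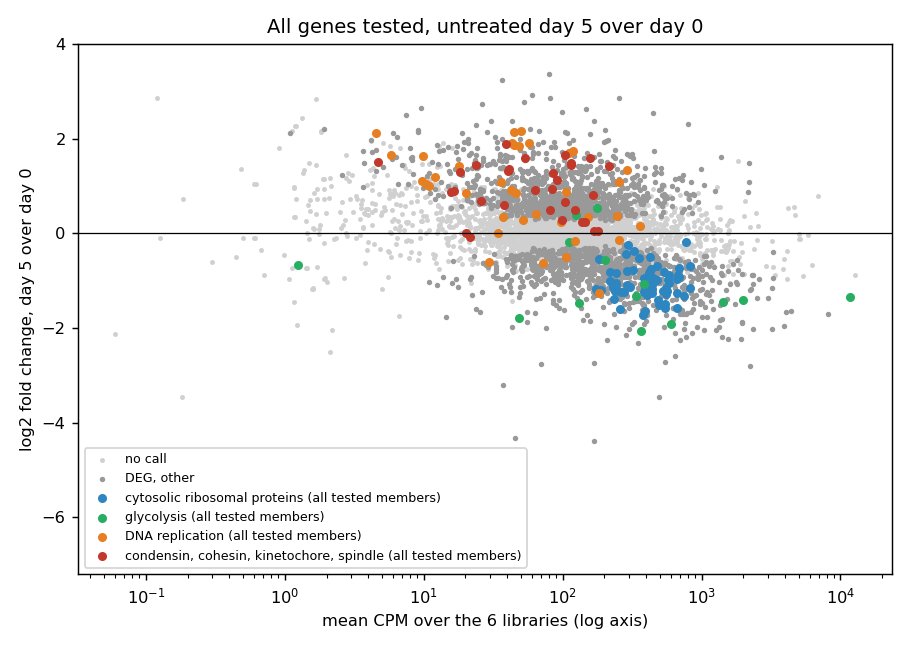
Mean CPM over the 6 libraries (horizontal, log axis) and log2 fold change of day 5 over day 0 (vertical) of the 4796 genes tested, 1 point per gene; light grey marks genes not called, dark grey DEGs, and 4 gene groups have their own colours. Cytosolic ribosomal proteins and most glycolysis genes lie below 0, and condensin and DNA replication genes mostly above it.

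The ribosome gave the largest share of DEGs in 1 direction of the 34 gene groups examined. Of 68 genes of cytosolic ribosomal proteins, 66 were tested, 61 fell and none rose, read against 19.4% of all genes that fell. The 66 log2 fold changes lay between -1.74 and -0.19 with a median of -1.10. In 65 genes the day 5 libraries lay below all day 0 libraries, which was seen in 21.7% of all genes tested. *CMH218C*, encoding protein S4 of the small subunit, had 443, 295 and 288 CPM on day 5, against 731, 766 and 883 CPM on day 0 (log2 fold change -1.21 ± 0.16, adjusted p = 9.8e-06, where ± is the SE). *CMO310C*, encoding L7 of the large subunit, had 608, 502 and 426 CPM on day 5, against 1155, 1108 and 1177 CPM on day 0 (log2 fold change -1.16 ± 0.17, adjusted p = 3.6e-05). Both genes were about as low in C4 as in C5 of day 5, with C3 closer to day 0. Over the whole group the medians relative to day 0 were -0.65, -1.30 and -1.44 in C3, C4 and C5. Together these genes took 2.34, 1.55 and 1.49% of counts on day 5, against 2.99, 3.01 and 3.22% on day 0. Without C3 the same number of genes, 61, fell, with a median of -1.38.

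Most of the translation factors that changed were lower as well. Among 48 translation factors, 26 fell (54.2%) and 6 rose (12.5%), where of all genes tested, 19.4% fell and 20.3% rose, with a median log2 fold change of -0.56. *CMS351C*, initiation factor 5A, which helps ribosomes past difficult stretches of peptide, had 516, 249 and 206 CPM on day 5, against 1289, 1349.9 and 982 CPM on day 0 (log2 fold change -1.90 ± 0.26, adjusted p = 1.7e-05). *CMT351C*, initiation factor 6, which acts in maturation of the large subunit, had 216, 219 and 197 CPM on day 5, against 358, 367 and 336 CPM on day 0 (log2 fold change -0.75 ± 0.12, adjusted p = 8.7e-05). *CME120C*, the beta subunit of elongation factor 1, which reloads the factor that delivers tRNAs, had 320.3, 52.2 and 54.4 CPM on day 5, against 1089, 1150.3 and 585 CPM on day 0 (log2 fold change -2.72 ± 0.51, adjusted p = 3.0e-04; -4.14 without C3 of day 5) and was one of the 10 largest falls listed below. The 6 that rose included *CMT272C*, the beta subunit of eIF-2B (log2 fold change 1.05 ± 0.25, adjusted p = 0.0025), and *CMI098C*, described as similar to elongation factor 2 (log2 fold change 0.64 ± 0.15, adjusted p = 0.0019). *CMN123C*, the eIF-2alpha kinase GCN2, which slows initiation when amino acids are short in yeast and animals, also rose (log2 fold change 0.71 ± 0.19, adjusted p = 0.0053); it was chosen after its values were seen.

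Aminoacyl-tRNA synthetases, which charge tRNAs with amino acids, fell in 19 of 38 genes (50%, where of all genes tested, 19.4% fell and 20.3% rose) and rose in 1. *CMQ354C*, a phenylalanyl-tRNA synthetase, had 280.3, 266 and 255 CPM on day 5, against 539, 522 and 526 CPM on day 0 (log2 fold change -0.98 ± 0.12, adjusted p = 6.0e-06). The exception was *CMK210C*, a cysteinyl enzyme of the organelles, with 103, 116 and 139 CPM on day 5, against 70.3, 69.6 and 67.1 CPM on day 0 (log2 fold change 0.79 ± 0.17, adjusted p = 8.9e-04). Of 39 genes of ribosome assembly and of RNA polymerases I and III, 13 fell (33.3%) and 3 rose (7.69%), and *CMT605C*, the snoRNP protein Nop58 that guides rRNA modification, had 263, 189 and 174 CPM on day 5, against 414, 403 and 369.9 CPM on day 0 (log2 fold change -0.92 ± 0.17, adjusted p = 2.2e-04). Among 32 nucleus-encoded ribosomal proteins of the chloroplast and mitochondrion, 7 fell (21.9%) and 2 rose (6.25%), with a median of -0.02, against 0.06 over all genes. The share that fell was thus near that of all genes. The largest of those falls was in *CMI304C*, mitochondrial ribosomal protein S1, at 2189, 814 and 793 CPM on day 5, against 5533, 5776 and 4106 CPM on day 0 (log2 fold change -2.02 ± 0.32, adjusted p = 7.9e-05; -2.68 without C3 of day 5). Of the synthetases, 2 rose without C3 of day 5, while 12 fell without C5 of day 5. For ribosome assembly, 6 rose without C3 of day 5, 1 without C2 of day 0 and none without C4 or C5 of day 5, while 8 fell without C4 of day 5. Of organelle ribosomal proteins, 5 rose without C3 of day 5, 1 without C4 of day 5 or without C1 or C2 of day 0 and none without C5 of day 5.

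**Figure D3:**
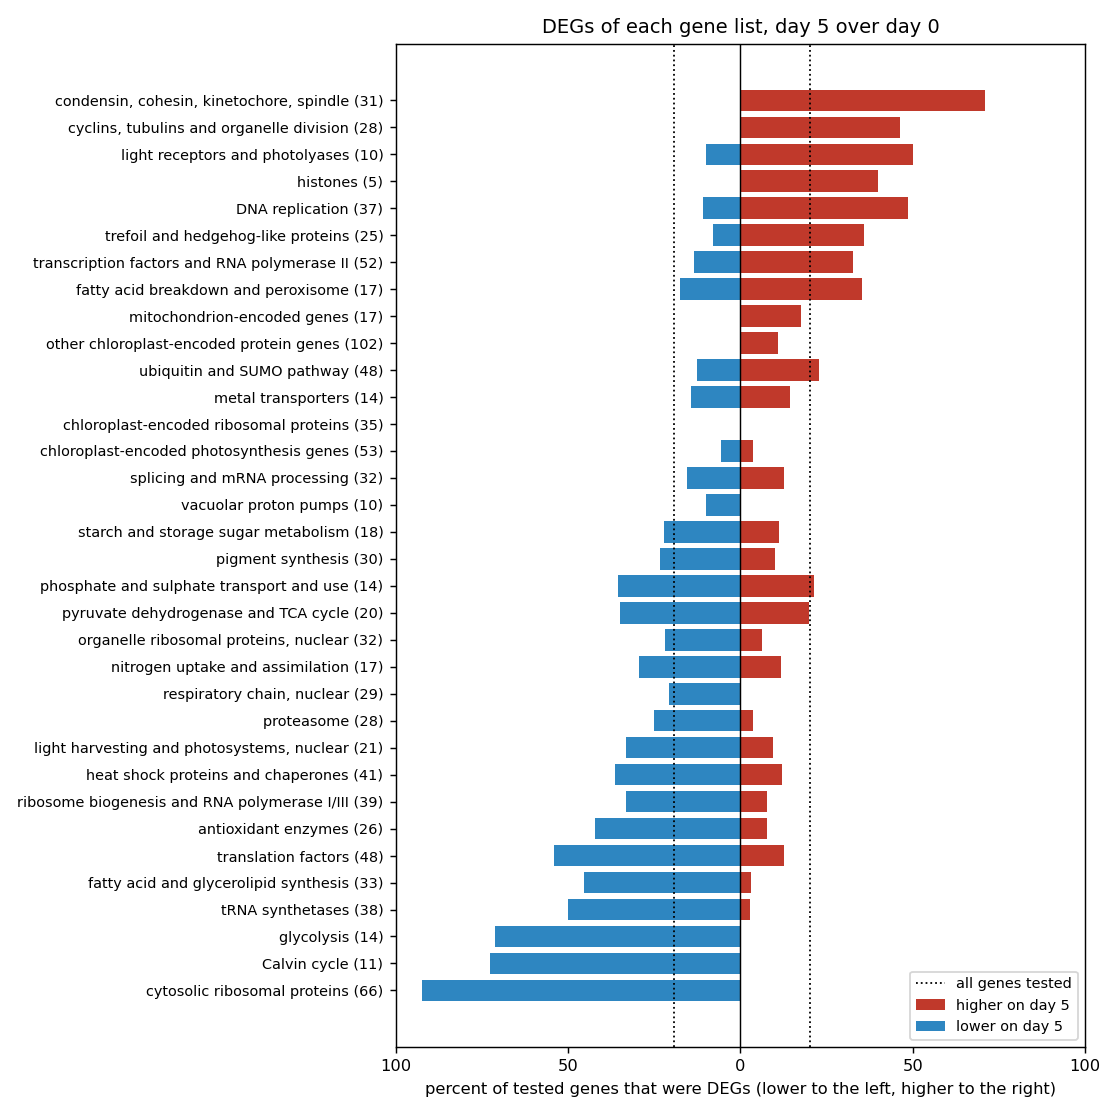
Percent of the tested genes of each group (rows, number tested in brackets) that were DEGs, with higher on day 5 drawn to the right and lower to the left. Dotted lines mark the 20.3% higher and 19.4% lower of all genes tested; 61 of 66 cytosolic ribosomal proteins reach furthest left, and 22 of 31 condensin, cohesin and kinetochore genes furthest right.

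Glycolysis genes were also lower. Of 14 genes, 10 fell (71.4%, where of all genes tested, 19.4% fell and 20.3% rose) and none rose, with a median of -1.33. *CMI049C*, fructose-bisphosphate aldolase, had 8206, 6468 and 5214 CPM on day 5, against 16022, 16002 and 18426 CPM on day 0 (log2 fold change -1.34 ± 0.24, adjusted p = 1.9e-04). *CMM167C*, a glyceraldehyde-3-phosphate dehydrogenase, had 299, 269.9 and 194 CPM on day 5, against 1075, 1151 and 654 CPM on day 0 (log2 fold change -1.92 ± 0.32, adjusted p = 1.2e-04). In both genes all day 5 libraries lay below all day 0 libraries. The other 8 that fell were a second glyceraldehyde-3-phosphate dehydrogenase, enolase, phosphoglycerate mutase, 3 pyruvate kinases, the pyrophosphate-dependent phosphofructokinase and glucose-6-phosphate isomerase. Without C3, 9 fell and the median was -1.49. In glycolysis, 1 rose without C4 of day 0.

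Nucleus-encoded enzymes of the Calvin cycle, which fixes CO2 in the chloroplast, fell in 8 of 11 genes (72.7%, where of all genes tested, 19.4% fell and 20.3% rose) and rose in none, with a median of -0.85 (-0.79 without C3). *CMJ305C*, phosphoglycerate kinase, had 1862, 1218 and 991 CPM on day 5, against 2845, 3105 and 3336 CPM on day 0 (log2 fold change -1.19 ± 0.20, adjusted p = 1.1e-04), and *CMO291C*, ribose 5-phosphate isomerase, had 182, 117 and 96.6 CPM on day 5, against 309, 312 and 267 CPM on day 0 (log2 fold change -1.17 ± 0.21, adjusted p = 2.6e-04). The subunits of Rubisco, the CO2-fixing enzyme, are encoded in the chloroplast of red algae. Its large subunit *CMV013C* had 2339.7, 987 and 1226 CPM on day 5, against 2501, 2690.4 and 4320.3 CPM on day 0 and its small subunit *CMV014C* had 706, 399 and 426 CPM on day 5, against 836, 961 and 1116 CPM on day 0. C3 of day 5 was nearer to day 0 than to C4 and C5 for both subunits. Both passed the test, with adjusted p = 0.032 and 0.035, but neither did so when C4 or C5 of day 5 or C4 of day 0 was left out, with adjusted p between 0.095 and 0.15, and *CMV014C* also failed without C2 of day 0, at adjusted p = 0.075.

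In the mitochondrion the picture was mixed. Of 20 genes of pyruvate dehydrogenase and the tricarboxylic acid cycle, 7 fell (35%) and 4 rose (20%), where of all genes tested, 19.4% fell and 20.3% rose. *CMT256C*, the alpha subunit of pyruvate dehydrogenase E1, which feeds carbon into acetyl-CoA, had 208, 186 and 154 CPM on day 5, against 331, 335 and 297 CPM on day 0 (log2 fold change -0.81 ± 0.15, adjusted p = 2.9e-04). The components of 2-oxoglutarate dehydrogenase parted: its E1, *CMF068C*, had 464, 792 and 872 CPM on day 5, against 335, 295 and 425 CPM on day 0 (log2 fold change 1.01 ± 0.19, adjusted p = 3.2e-04), whereas its E2, *CMJ055C*, had 283, 208 and 215 CPM on day 5, against 390.3, 389 and 361 CPM on day 0 (log2 fold change -0.69 ± 0.14, adjusted p = 5.0e-04). *CMT216C*, an NADP-dependent isocitrate dehydrogenase, rose as well (log2 fold change 0.94 ± 0.21, adjusted p = 0.0013). For this group, 2 rose without C5 of day 5 or without C1 of day 0. Nucleus-encoded subunits of the respiratory chain and ATP synthase fell in 6 of 29 genes (20.7%), near the share of all genes, and rose in none, with a median of -0.20; *CMR404C*, cytochrome c oxidase subunit VIb, had 95.9, 79.8 and 76.6 CPM on day 5, against 152, 151 and 148 CPM on day 0 (log2 fold change -0.84 ± 0.14, adjusted p = 1.1e-04). In the respiratory chain, 3 rose without C3 of day 5 and 1 without C4 of day 0. The median without C3 was -0.19, with 9 lower. Starch and storage sugar genes gave 2 higher (11.1%) and 4 lower (22.2%) of 18, among them *CMT363C*, similar to a glycogenin-interacting protein, with 108, 151 and 159 CPM on day 5, against 89.5, 67.6 and 81.4 CPM on day 0 (log2 fold change 0.81 ± 0.15, adjusted p = 3.3e-04), and *CMJ087C*, a beta-amylase, with 213, 61.9 and 80.9 CPM on day 5, against 276, 289.8 and 184 CPM on day 0 (log2 fold change -1.07 ± 0.29, adjusted p = 0.0059; -1.81 without C3 of day 5). For starch and sugar, 1 rose without C4 or C5 of day 5 or without C2 or C4 of day 0, while 2 fell without C4 or C5 of day 5 or without C1 or C2 of day 0.

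Nucleus-encoded antenna and photosystem proteins that changed were mostly lower. Among 21 genes of light-harvesting, photosystem and phycobilisome proteins, 7 fell (33.3%) and 2 rose (9.52%), where of all genes tested, 19.4% fell and 20.3% rose, with a median of -0.40; without C3 the median was -0.63. Of these genes, 1 rose without C5 of day 5 and none without C4 of day 5 or without C1 or C2 of day 0, while 12 fell without C3 of day 5. *CME041C*, the photosystem II assembly protein Psb29, had 505, 198 and 179 CPM on day 5, against 1226, 1297 and 1072 CPM on day 0 (log2 fold change -2.03 ± 0.31, adjusted p = 5.3e-05; -2.67 without C3 of day 5). *CMN290C*, the 23K protein of the oxygen-evolving complex that splits water, had 195, 185 and 132 CPM on day 5, against 367, 339 and 369.9 CPM on day 0 (log2 fold change -1.07 ± 0.17, adjusted p = 7.2e-05). C3 decided the call for *CMQ142C*, a light-harvesting protein chosen after its values were seen, which had 6196, 1139 and 1308 CPM on day 5, against 6072, 6423 and 2063 CPM on day 0. C3 of day 5 was as high as C1 and C2 of day 0, and C4 of day 0 was nearer to C4 and C5 of day 5. The gene was not called over the 6 libraries (adjusted p = 0.25) and fell without C3 (log2 fold change -1.99, adjusted p = 0.0011).

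Of 30 genes of chlorophyll, haem, bilin and carotenoid synthesis, 7 fell (23.3%) and 3 rose (10%), where of all genes tested, 19.4% fell and 20.3% rose. Of the pigment genes, 5 rose without C3 of day 5. Single enzymes went both ways. The largest rise was *CMB093C*, subunit H of magnesium chelatase, which puts magnesium into protoporphyrin at the first step toward chlorophyll, with 621, 822 and 863 CPM on day 5, against 96.0, 89.7 and 208 CPM on day 0 (log2 fold change 2.55 ± 0.43, adjusted p = 1.1e-04). At the competing step toward haem, *CMS035C*, ferrochelatase, had 255, 224 and 183 CPM on day 5, against 529, 546 and 569 CPM on day 0 (log2 fold change -1.31 ± 0.19, adjusted p = 3.6e-05). *CMI038C*, the magnesium-protoporphyrin methyltransferase that follows the chelatase, had 99.7, 91.3 and 78.0 CPM on day 5, against 162, 143 and 123 CPM on day 0 (log2 fold change -0.67 ± 0.14, adjusted p = 8.1e-04). Upstream of the branch, *CMP083C*, uroporphyrinogen decarboxylase, had 102, 101 and 109.5 CPM on day 5, against 43.1, 47.0 and 49.6 CPM on day 0 (log2 fold change 1.16 ± 0.22, adjusted p = 3.3e-04). None of these 4 genes had overlapping days.

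Genes of the chloroplast genome had mostly positive values, with few DEGs. Of 190 tested, 13 rose (6.84%) and 3 fell (1.58%), against 958 and 926 of 4584 nuclear genes. Their median log2 fold change was 0.48 (0.24 without C5 of day 5), against 0.04 in the nucleus. All 35 chloroplast-encoded ribosomal protein genes had positive values with a median of 0.73, yet none passed the test, and 1 did without C3. Relative to the day 0 mean, their medians were 0.24, 0.53 and 1.07 on day 5, against -0.18, -0.17 and 0.41 on day 0. C3 of day 5 was thus below C4 of day 0. Without C5 of day 5 the median log2 fold change was 0.36. Photosynthesis genes gave 2 higher (3.77%) and 3 lower (5.66%) of 53, where of all genes tested, 19.4% fell and 20.3% rose. Of these photosynthesis genes, 1 rose without C5 of day 5 or without C1, C2 or C4 of day 0, while 1 fell without C2 of day 0 and none without C4 or C5 of day 5 or without C4 of day 0. *CMV027C* and *CMV026C*, an acyltransferase and a deacetylase whose bacterial relatives act early in lipid A synthesis, had 214, 681 and 505 CPM on day 5, against 146, 157 and 145 CPM on day 0, and 85.9, 251 and 216 CPM on day 5, against 57.6, 68.4 and 52.5 CPM on day 0. Their log2 fold changes were 1.64 ± 0.39 and 1.63 ± 0.39 (adjusted p = 0.0023 and 0.0023). *CMV028C*, photosystem I subunit XII, had 28.6, 85.4 and 65.1 CPM on day 5, against 10.5, 24.1 and 23.2 CPM on day 0 (log2 fold change 1.63 ± 0.45, adjusted p = 0.0061). In all 3 genes C4 and C5 were far above day 0, and C3 was only a little above it. Over the chloroplast genome, 20 rose without C3 of day 5, 7 without C2 of day 0, 6 without C1 of day 0 and 4 without C5 of day 5, while 1 fell without C2 of day 0 and none without C4 or C5 of day 5 or without C4 of day 0.

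The share of counts on chloroplast genes was 5.02% ± 1.03 on day 5 and 4.14% ± 0.295 on day 0 (SD, n = 3 each). The difference of 0.874 percentage points was within the spread (two-sided exact permutation test, p = 0.3, where 0.1 is the smallest p that 3 against 3 can give). Photosynthesis genes of the chloroplast alone took 1.74%, 2.02% and 2.16% on day 5, against 1.70%, 1.90% and 2.17% on day 0. Chloroplast transcripts mostly lack the poly(A) tails used for selection, so these are not shares of all chloroplast RNA. Of 34 mitochondrial genes only 17 could be tested, and 3 rose (17.6%), near the 20.3% of all genes tested that rose. None of the 3 rose in all fits that left out a library. Of the mitochondrial genes, 6 rose without C3 of day 5, 1 without C5 of day 5 or without C1 or C2 of day 0 and none without C4 of day 5.

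Genes of chromosome segregation were higher on day 5. Of 31 genes for condensin, cohesin, the kinetochore and the spindle checkpoint, 22 rose and none fell, read against 20.3% of all genes that rose, and the median log2 fold change was 0.91. *CMS422C*, the G subunit of condensin I, which compacts chromosomes for mitosis, had 160.5, 155 and 162 CPM on day 5, against 52.6, 53.0 and 46.8 CPM on day 0 (log2 fold change 1.65 ± 0.17, adjusted p = 2.7e-06). *CMG189C*, an SMC protein, one of the coiled ATPases at the core of such complexes, had 236, 219 and 257 CPM on day 5, against 80.1, 70.0 and 85.5 CPM on day 0 (log2 fold change 1.60 ± 0.20, adjusted p = 7.9e-06). For both genes the 3 day 5 libraries were close to each other, C3 included. Without C3, 18 genes rose and none fell, with a median of 0.63, and 18 rose in every fit that left out a library. Others of the 22 were *CMO331C*, a cohesin subunit (log2 fold change 1.89 ± 0.37, adjusted p = 4.3e-04), and *CMQ044C*, the Aurora kinase of mitosis (log2 fold change 1.45 ± 0.32, adjusted p = 0.0011), both named after their values were seen.

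Among 28 cyclins, cyclin-dependent kinases, tubulins and organelle division proteins, 13 rose (46.4%, where of all genes tested, 19.4% fell and 20.3% rose) and none fell, with a median of 0.54; without C3, 10 rose. *CMT097C* and *CMR497C*, kinesin-related motors, had 237, 179 and 213 CPM on day 5, against 89.5, 82.6 and 104 CPM on day 0, and 149, 168 and 165 CPM on day 5, against 75.0, 66.4 and 62.3 CPM on day 0. Their log2 fold changes were 1.19 ± 0.21 and 1.24 ± 0.24 (adjusted p = 1.6e-04 and 4.7e-04). Also higher were the tubulins *CMT504C* (1.22) and *CMN263C* (0.93), the B-type kinase *CMH128C* (1.29), the dynamin-related protein of chloroplast division *CMN262C* (0.86) and the mitochondrial division protein Mda1, *CMR185C* (1.00), all log2 fold changes called in every fit that left out a library and all named after their values were seen. Of 5 histone genes tested, *CMN183C*, similar to linker histone H1, had 539.8, 530.2 and 617 CPM on day 5, against 196, 206 and 249 CPM on day 0 (log2 fold change 1.37 ± 0.17, adjusted p = 8.3e-06). The other histone that rose, the H3 variant *CME099C*, had 52.5, 35.0 and 34.4 CPM on day 5, against 25.7, 28.9 and 11.0 CPM on day 0 (log2 fold change 0.89 ± 0.26, adjusted p = 0.0091), and was not called without C3, at adjusted p = 0.053. It was also not called without C4 of day 0 (adjusted p = 0.056).

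DNA replication also had many DEGs, 18 higher (48.6%) and 4 lower (10.8%) of 37, where of all genes tested, 19.4% fell and 20.3% rose, but here C3 decided much of the count. Without C1 or without C2 of day 0, 2 fell. Without C3 of day 5, 9 rose and 5 fell, and the median log2 fold change was 0.51, against 1.01 with it. All 8 tested genes of the minichromosome maintenance (MCM) group, whose main members form the helicase that opens DNA at replication origins, were highest in C3 of day 5. Of these, 7 rose over the 6 libraries and none was called without C3. *CMJ261C* had 179, 17.5 and 21.8 CPM on day 5, against 18.8, 14.2 and 16.7 CPM on day 0, with a log2 fold change of 2.13 ± 0.71 (adjusted p = 0.02), and 0.24 without C3 (adjusted p = 0.78). *CMD025C* had 379, 54.8 and 112 CPM on day 5, against 67.4, 59.7 and 37.4 CPM on day 0, and *CMP356C* had 312, 85.4 and 112 CPM on day 5, against 46.8, 52.2 and 58.6 CPM on day 0. In all 3 genes C4 and C5 of day 5 were near or moderately above day 0, while C3 was several times higher. *CMJ261C* was also not called without C2 of day 0 (adjusted p = 0.065), *CMD025C* without C2 or C4 of day 0 (adjusted p = 0.063 and 0.094), and *CMP356C* without C1 of day 0 (adjusted p = 0.051).

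Some other replication genes were high in all day 5 libraries. *CMQ098C*, the catalytic subunit of DNA polymerase epsilon, which copies the leading strand in yeast, had 465, 387 and 403 CPM on day 5, against 157, 126 and 214 CPM on day 0 (log2 fold change 1.33 ± 0.18, adjusted p = 1.7e-05; 1.25 without C3), and shares 2352 bases with another RefSeq transcript. *CMI176C*, described as a DNA polymerase, had 107, 45.9 and 52.3 CPM on day 5, against 21.4, 14.6 and 18.7 CPM on day 0 (log2 fold change 1.91 ± 0.27, adjusted p = 2.5e-05; 1.42 without C3). Of those that fell, *CMK035C*, the beta chain of ribonucleotide reductase, which makes deoxynucleotides, had 175, 69.7 and 75.5 CPM on day 5, against 249, 254 and 269 CPM on day 0 (log2 fold change -1.27 ± 0.29, adjusted p = 0.0015), and *CMO145C*, replication factor C subunit 3, had 84.2, 88.7 and 90.9 CPM on day 5, against 128, 134 and 112 CPM on day 0 (log2 fold change -0.50 ± 0.12, adjusted p = 0.0029). PCNA, the sliding clamp of replication (*CMS101C*, chosen after its values were seen), had 274, 66.4 and 68.7 CPM on day 5, against 74.7, 82.2 and 66.3 CPM on day 0 and was not called (adjusted p = 0.15). As with the MCM genes, C3 of day 5 was the only library in which its level stood out.

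**Figure D4:**
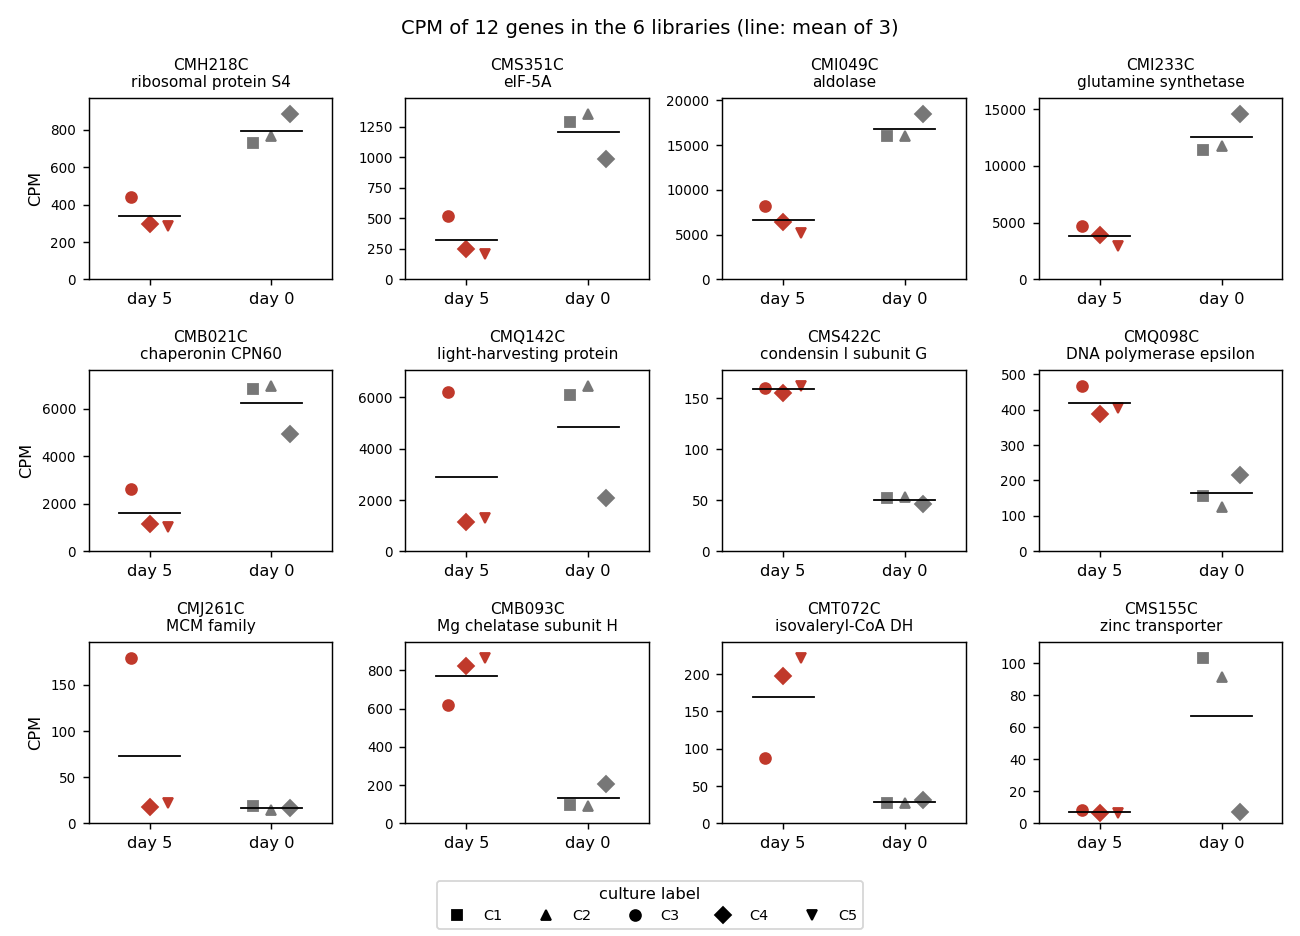
CPM (vertical, linear axis from 0) of 12 genes in the 6 libraries, with day 5 left of day 0 in each panel, symbols for the culture labels and a line at the mean of 3. The MCM gene *CMJ261C* is high in C3 of day 5 alone, at 179 CPM, while the condensin gene *CMS422C* lies between 155 and 162 CPM in the day 5 libraries and between 46.8 and 53.0 CPM on day 0.

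Nitrogen assimilation centres on glutamine synthetase, which fixes ammonium, and on glutamate synthase. The synthetase, *CMI233C*, fell to 4726, 3949.7 and 2924 CPM on day 5, against 11364, 11743 and 14522 CPM on day 0 (log2 fold change -1.70 ± 0.21, adjusted p = 6.3e-06). The chloroplast-encoded glutamate synthase *CMV060C* had 1436, 3293 and 3617 CPM on day 5, against 1483, 1607 and 1489.8 CPM on day 0: C4 and C5 were over the day 0 level and C3 was within it. It passed the test (log2 fold change 0.87 ± 0.32, adjusted p = 0.036) and kept the call only without C3, its adjusted p being 0.066 to 0.19 when any other library was left out. The nitrate transporter *CMG018C* and nitrate reductase *CMG019C*, neighbours on chromosome 7, were near 0 in every library, at 1.73, 0.746 and 1.43 CPM on day 5, against 1.09, 1.98 and 0 CPM on day 0, and 0.69, 0 and 0 CPM on day 5, against 0.725, 0.395 and 0 CPM on day 0. Neither was called (adjusted p = 0.76 and 0.8). *CMG021C*, which the annotation calls a ferredoxin-dependent sulfite reductase, had 23.5, 94.3 and 50.1 CPM on day 5, against 47.1, 36.0 and 27.3 CPM on day 0; it was not called over the 6 libraries (adjusted p = 0.16) but was without C3 (log2 fold change 0.97, adjusted p = 0.0091). RefSeq places the model of *CMG022C* over 912 of its bases. Of the 17 genes of this group, 5 fell (29.4%) and 2 rose (11.8%), where of all genes tested, 19.4% fell and 20.3% rose. Of the nitrogen genes, 1 rose without C4 of day 5 or without C4 of day 0 and none without C5 of day 5 or without C1 or C2 of day 0, while 3 fell without C4 of day 5 or without C2 of day 0.

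Of 14 genes of phosphate and sulphate transport and use, 5 fell (35.7%) and 3 rose (21.4%), where of all genes tested, 19.4% fell and 20.3% rose. *CMH229C*, a probable sulfate permease, had 123, 129 and 139.6 CPM on day 5, against 30.4, 32.8 and 92.8 CPM on day 0 (log2 fold change 1.33 ± 0.30, adjusted p = 0.0012, log2 fold change 2.04 without C4 of day 0). By contrast, *CMS096C*, sulfate adenylyltransferase, fell, with 424, 331 and 296 CPM on day 5, against 774, 807 and 671 CPM on day 0 (log2 fold change -1.10 ± 0.14, adjusted p = 8.4e-06). So did *CMR440C*, a sulfite reductase flavoprotein, with 251, 189 and 168 CPM on day 5, against 451, 449 and 649 CPM on day 0 (log2 fold change -1.35 ± 0.17, adjusted p = 9.0e-06). *CMM026C*, polyphosphate kinase, had 384, 281 and 342 CPM on day 5, against 224, 209.9 and 225 CPM on day 0 (log2 fold change 0.61 ± 0.14, adjusted p = 0.0019). Of 14 metal transporters that the study names, 2 rose and 2 fell (14.3% each) in these cultures without added nickel. Of the metal transporters, 1 rose without C4 or C5 of day 5 or without C1 or C2 of day 0. *CMJ138C*, similar to a metal ion transporter, had 589, 561 and 577 CPM on day 5, against 363, 335 and 378 CPM on day 0 (log2 fold change 0.68 ± 0.16, adjusted p = 0.0019). *CMS155C*, a probable zinc transporter, had 8.63, 6.71 and 6.44 CPM on day 5, against 103, 91.3 and 6.92 CPM on day 0 (log2 fold change -3.20 ± 0.82, adjusted p = 0.0037). Its level on day 0 was high in C1 and C2 and, in C4, as low as on day 5, so the days overlapped; without C3 of day 5 the adjusted p was 0.0086. *CML032C*, a sodium-dependent transporter, fell (log2 fold change -0.98 ± 0.19, adjusted p = 4.9e-04).

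Chaperones that changed were mostly lower. Of 41 heat shock proteins and chaperones, 15 fell (36.6%) and 5 rose (12.2%), where of all genes tested, 19.4% fell and 20.3% rose, with a median of -0.27. *CMB021C*, chaperonin CPN60, which folds new proteins in the chloroplast, had 2619, 1144 and 1036 CPM on day 5, against 6825, 6929 and 4937 CPM on day 0 (log2 fold change -1.96 ± 0.26, adjusted p = 1.2e-05). Its partner *CMS188C*, the 20 kDa chaperonin, had 556, 526 and 433 CPM on day 5, against 1255, 1291 and 1231 CPM on day 0 (log2 fold change -1.32 ± 0.19, adjusted p = 3.3e-05), and *CMT423C*, the chloroplast GrpE that recharges Hsp70, had 210.2, 77.6 and 61.9 CPM on day 5, against 632, 615 and 509 CPM on day 0 (log2 fold change -2.33 ± 0.38, adjusted p = 9.3e-05; -3.07 without C3 of day 5). The 3 genes fell in every fit that left out a library. *CMS128C*, an ATP-binding subunit of the Clp protease, went up, at 439, 485 and 524 CPM on day 5, against 163, 189.7 and 124 CPM on day 0 (log2 fold change 1.60 ± 0.18, adjusted p = 3.1e-06). Of the chaperones, 2 rose without C4 or C5 of day 5 or without C1 or C2 of day 0.

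Among 28 proteasome genes, 7 fell (25%) and 1 rose (3.57%), where of all genes tested, 19.4% fell and 20.3% rose. In the proteasome, none rose without C4 or C5 of day 5 or without C1 or C2 of day 0, while 3 fell without C4 or C5 of day 5. *CMI156C*, an ATPase of the regulatory particle, had 271, 216 and 220.5 CPM on day 5, against 379.8, 372 and 320.2 CPM on day 0 (log2 fold change -0.60 ± 0.14, adjusted p = 0.0014). The ubiquitin and SUMO pathway gave 11 higher (22.9%) and 6 lower (12.5%) of 48. In this pathway, 6 rose without C4 of day 5 or without C2 of day 0 and 4 without C5 of day 5. A pair of ubiquitin-conjugating enzymes rose in every fit that left out a library: *CMP181C* had 114, 117 and 157 CPM on day 5, against 22.1, 23.3 and 64.3 CPM on day 0 (log2 fold change 1.83 ± 0.36, adjusted p = 4.7e-04; 2.51 without C4 of day 0), and *CMB015C* had 97.0, 109 and 101 CPM on day 5, against 35.5, 39.9 and 59.8 CPM on day 0 (log2 fold change 1.18 ± 0.23, adjusted p = 4.7e-04). Antioxidant enzymes fell in 11 of 26 genes (42.3%) and rose in 2 (7.69%). Of the antioxidant enzymes, 1 rose without C4 or C5 of day 5 or without C1 or C2 of day 0. *CMI112C*, peroxiredoxin Q, which reduces peroxides in chloroplasts, had 251, 169 and 155 CPM on day 5, against 635, 625 and 552 CPM on day 0 (log2 fold change -1.66 ± 0.26, adjusted p = 6.0e-05), and *CMT414C*, a monodehydroascorbate reductase, which recycles ascorbate, had 637, 757 and 622 CPM on day 5, against 1112, 1257 and 1115 CPM on day 0 (log2 fold change -0.79 ± 0.14, adjusted p = 1.8e-04). Manganese superoxide dismutase, *CMT028C*, had 342, 136 and 155 CPM on day 5, against 101, 117 and 29.3 CPM on day 0 (log2 fold change 1.35 ± 0.43, adjusted p = 0.016) but was not called without C3 of day 5 (adjusted p = 0.13) or without C4 of day 0 (adjusted p = 0.078).

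Lipid genes differed by pathway. Of 33 genes of fatty acid and glycerolipid synthesis, 15 fell (45.5%) and 1 rose (3.03%), where of all genes tested, 19.4% fell and 20.3% rose, with a median of -0.34. In lipid synthesis, 3 rose without C3 of day 5 and 2 without C4 of day 0. *CML178C*, a fatty acid elongase, had 166, 38.8 and 42.6 CPM on day 5, against 313, 326 and 301 CPM on day 0 (log2 fold change -1.92 ± 0.37, adjusted p = 3.8e-04; -2.94 without C3 of day 5). *CMJ027C*, glycerol-3-phosphate acyltransferase, at the first step of glycerolipid assembly, had 119, 108 and 108 CPM on day 5, against 205, 209 and 214 CPM on day 0 (log2 fold change -0.91 ± 0.11, adjusted p = 8.2e-06). Of 17 genes of fatty acid breakdown and the peroxisome, 6 rose (35.3%) and 3 fell (17.6%), with a median of 0.30. In fatty acid breakdown, 3 rose without C4 or C5 of day 5. *CML080C*, a mitochondrial acyl-CoA dehydrogenase, had 109, 210.3 and 227 CPM on day 5, against 55.1, 74.3 and 33.4 CPM on day 0 (log2 fold change 1.74 ± 0.27, adjusted p = 5.4e-05), and *CMA042C*, acetyl-CoA acetyltransferase, had 187, 166 and 224 CPM on day 5, against 87.0, 75.1 and 88.3 CPM on day 0 (log2 fold change 1.20 ± 0.19, adjusted p = 5.3e-05). The 3 that fell are all described as similar to the peroxisomal membrane protein PMP22, the largest fall being *CMS031C*, with 169, 138 and 113 CPM on day 5, against 611, 602 and 329 CPM on day 0 (log2 fold change -1.88 ± 0.22, adjusted p = 3.9e-06). The difference between the pathways was not itself tested.

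Of 52 transcription factors and RNA polymerase II genes, 17 rose (32.7%) and 7 fell (13.5%), where of all genes tested, 19.4% fell and 20.3% rose, and 11 of the 17 rose in every fit that left out a library. *CME102C*, similar to GATA transcription factors, had 109, 373 and 369 CPM on day 5, against 57.6, 68.8 and 37.0 CPM on day 0 (log2 fold change 2.38 ± 0.37, adjusted p = 5.3e-05). MYB-related genes went both ways: *CMT134C* had 135, 111 and 118 CPM on day 5, against 49.7, 49.4 and 38.7 CPM on day 0 (log2 fold change 1.40 ± 0.17, adjusted p = 4.9e-06), and *CMQ253C* had 447, 116 and 119.6 CPM on day 5, against 507, 525 and 707 CPM on day 0 (log2 fold change -1.35 ± 0.36, adjusted p = 0.005; -2.30 without C3 of day 5). Of the transcription genes, 3 fell without C1 or C2 of day 0, 2 without C5 of day 5 and 1 without C4 of day 5. *CMT067C*, annotated as E2F, and *CML315C*, similar to its partner DP-1, a pair that in plants and animals switches on genes for DNA replication, rose with log2 fold changes of 0.92 ± 0.18 and 1.62 ± 0.35 (adjusted p = 4.1e-04 and 0.001; named after their values were seen). Splicing and mRNA processing gave 4 higher (12.5%) and 5 lower (15.6%) of 32, with *CMJ286C*, a poly(A)-binding protein, at 330.3, 122 and 137 CPM on day 5, against 581, 594 and 519 CPM on day 0 (log2 fold change -1.52 ± 0.27, adjusted p = 2.0e-04; -2.13 without C3 of day 5). Of the splicing genes, 7 rose without C3 of day 5, 2 without C4 of day 0 and 1 without C4 or C5 of day 5, while 3 fell without C4 or C5 of day 5.

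Of 10 light receptors, photolyases and high-light proteins, 5 rose (50%) and 1 fell (10%), where of all genes tested, 19.4% fell and 20.3% rose. *CMK039C*, annotated as COP1, a ubiquitin ligase that represses light responses in plants, had 166, 219 and 228 CPM on day 5, against 154, 138 and 140.4 CPM on day 0 (log2 fold change 0.50 ± 0.11, adjusted p = 0.0013). *CMA044C*, a cryptochrome of the DASH class, had 98.7, 109 and 109 CPM on day 5, against 54.4, 44.7 and 85.5 CPM on day 0 (log2 fold change 0.78 ± 0.20, adjusted p = 0.004). Of the light-related genes, 3 rose without C2 of day 0, while 2 fell without C3 or C4 of day 5 and none without C5 of day 5 or without C1 or C2 of day 0. Genes described as similar to trefoil factor or hedgehog protein, names carried over from animals, gave 9 higher (36%) and 2 lower (8%) of 25. Of the trefoil and hedgehog-like genes, 6 fell without C3 of day 5 and none without C4 or C5 of day 5 or without C1 or C2 of day 0. *CMC002C*, on chromosome 3, had 359, 824 and 905 CPM on day 5, against 219.6, 216 and 190.4 CPM on day 0 (log2 fold change 1.74 ± 0.30, adjusted p = 1.6e-04), and *CMA001C*, on chromosome 1, had 25.2, 14.9 and 19.7 CPM on day 5, against 6.52, 5.53 and 5.70 CPM on day 0 (log2 fold change 1.75 ± 0.39, adjusted p = 0.0014). Of 10 genes of the vacuolar proton pumps, 1 fell (10%) and none rose, with a median of -0.07. Of the proton pumps, 1 rose without C3 of day 5.

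The largest single changes were ranked among DEGs whose days did not overlap and whose mean over the 6 libraries was at least 10 CPM. The largest fall was *CMI286C* (chromosome 9, 751723 to 754509), which has no description, with 22.1, 14.5 and 8.95 CPM on day 5, against 404, 364 and 195 CPM on day 0 (log2 fold change -4.39 ± 0.65, adjusted p = 3.9e-05). Next came *CMH019C* (chromosome 8, 55187 to 56560), similar to the plant UV-B receptor UVR8, with 6.56, 2.61 and 3.58 CPM on day 5, against 105, 117 and 39.1 CPM on day 0 (log2 fold change -4.33 ± 0.47, adjusted p = 2.8e-06). *CMQ113C* (chromosome 17, 269025 to 269534), similar to the growth-related protein TCTP, had 203, 23.5 and 22.2 CPM on day 5, against 1061, 1152 and 525 CPM on day 0 (log2 fold change -3.45 ± 0.60, adjusted p = 1.6e-04; -5.32 without C3). The other 7 of the 10 were *CMM134C* (-2.80), *CMT329C* (-2.76), *CMS159C* (-2.74), *CME120C* (-2.72), *CMR182C* (-2.60), *CMT423C* (-2.33) and *CMM227C* (-2.26), given as log2 fold changes. Of these, *CMS159C*, which makes the sugar donor UDP-glucose, had 100.1, 17.9 and 13.2 CPM on day 5, against 233, 232 and 416 CPM on day 0. *CMM134C*, with no description, had 1276, 196 and 198 CPM on day 5, against 4348, 4673 and 2636 CPM on day 0; a RefSeq transcript not counted in the table used here overlaps 1334 of its bases. In 7 of the 10, from *CMQ113C* to *CMT423C*, C3 of day 5 was between 2 and 10 times the level of C4 and C5 but still below every day 0 library, and without C3 their log2 fold changes lay between -5.32 and -3.07.

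The largest rise was *CML261C* (chromosome 12, 676080 to 676529), which has no description, with 137, 121 and 177 CPM on day 5, against 17.0, 17.8 and 6.92 CPM on day 0 (log2 fold change 3.37 ± 0.54, adjusted p = 8.3e-05). *CML168C* (chromosome 12, 422065 to 423408), the E1 beta subunit of the branched-chain alpha-keto acid decarboxylase, had 31.8, 70.8 and 95.2 CPM on day 5, against 3.26, 6.32 and 11.4 CPM on day 0 (log2 fold change 3.25 ± 0.48, adjusted p = 3.6e-05); 689 of its bases are shared with another RefSeq transcript. *CMT072C* (chromosome 20, 183861 to 185759), isovaleryl-CoA dehydrogenase, which acts after it in leucine breakdown, had 88.0, 198 and 221 CPM on day 5, against 27.5, 27.3 and 30.9 CPM on day 0 (log2 fold change 2.56 ± 0.30, adjusted p = 3.9e-06). Both were higher in every day 5 library than in any day 0 library, and C4 and C5 of day 5 were over 2 times C3. The other 7 were *CMC125C* (2.92), *CMR290C* (2.76), *CMN051C* (2.73), *CMT312C* (2.62), *CMB093C* (2.55), *CME102C* (2.38) and *CMI288C* (2.37). *CMT312C*, a membrane-associated calcium-independent phospholipase, had 125, 296 and 340.0 CPM on day 5, against 39.5, 34.8 and 49.2 CPM on day 0, and *CMN051C*, similar to 6-pyruvoyltetrahydropterin synthase, had 21.4, 54.1 and 61.9 CPM on day 5, against 4.71, 8.30 and 7.73 CPM on day 0. *CMI288C* (chromosome 9, 758526 to 760445) lies close to *CMI286C*, the largest fall, and had 82.1, 28.0 and 43.0 CPM on day 5, against 7.61, 10.3 and 11.8 CPM on day 0. All 20 were called in each of the 6 fits that left out a library.

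The same groups were followed to days 10 and 15 of the untreated cultures. Cytosolic ribosomal proteins stood, relative to the day 0 mean, at medians of -0.65, -1.30 and -1.44 in the day 5 libraries. The day 10 libraries were at -1.24, -1.03 and -1.11 and those of day 15 at -0.62, -0.93 and -0.82. For DNA replication the medians were 1.46, 0.41 and 0.56 in the day 5 libraries, then 0.96, 1.44 and 1.07 by day 10, then -0.56, 0.22 and 0.50 by day 15. The 3 day 10 libraries were thus above C4 and C5 of day 5, with C3 of day 5 the highest of the 6. Condensin and kinetochore genes stood at 1.12, 0.57 and 0.73, then 0.68, 0.98 and 0.75, then 0.46, 0.47 and 0.52. Single genes did not all keep their day 5 level: *CMD025C* averaged 182 ± 173 CPM, then 329 ± 139.5, then 65.0 ± 41.1 on days 5, 10 and 15 (SD, n = 3 each), and *CMI286C* averaged 15.2 ± 6.59, 28.7 ± 24.7 and 77.8 ± 58.3 CPM on the same days.

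Whether the first 5 days differed from the later steps was tested in the same fit. The change over days 0 to 5 differed from the change over days 5 to 10 in 566 genes (11.8%), of which 550 were DEGs of the first step; both steps use the day 5 libraries. All 12 such genes of the condensin group and all 7 of the cyclin and division group had the larger rise in the first step. All 16 such cytosolic ribosomal proteins had the larger fall. These directions follow from the DEG calls and are not particular to the groups. All 307 higher DEGs that passed had a positive difference, and none of the 243 lower DEGs that passed did. For *CMI286C* the difference between steps was -5.32 on the log2 scale (adjusted p = 0.0083). The count of 566 genes depended on the libraries: it was 1674 without C3 of day 5, 50 without C4 and 21 without C5 of day 5. It was 345 without C1 and 295 without C2 of day 0. In the fit on the 12 untreated libraries it was 9. The change over days 0 to 5 differed from that over days 10 to 15, with which it shares no library, in 1847 genes (38.5%), and in 1511 to 2168 genes when any library of day 0 or day 5 was left out. In the 12-library fit it was 1078. Those 1847 held 61 of 66 cytosolic ribosomal proteins, all with the more negative change in the first step. They also held 21 condensin and kinetochore genes, all with the more positive one. Here too the direction was that of every DEG that passed. All 678 higher DEGs had the more positive change in the first step, and none of the 751 lower DEGs did.

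**Figure D5:**
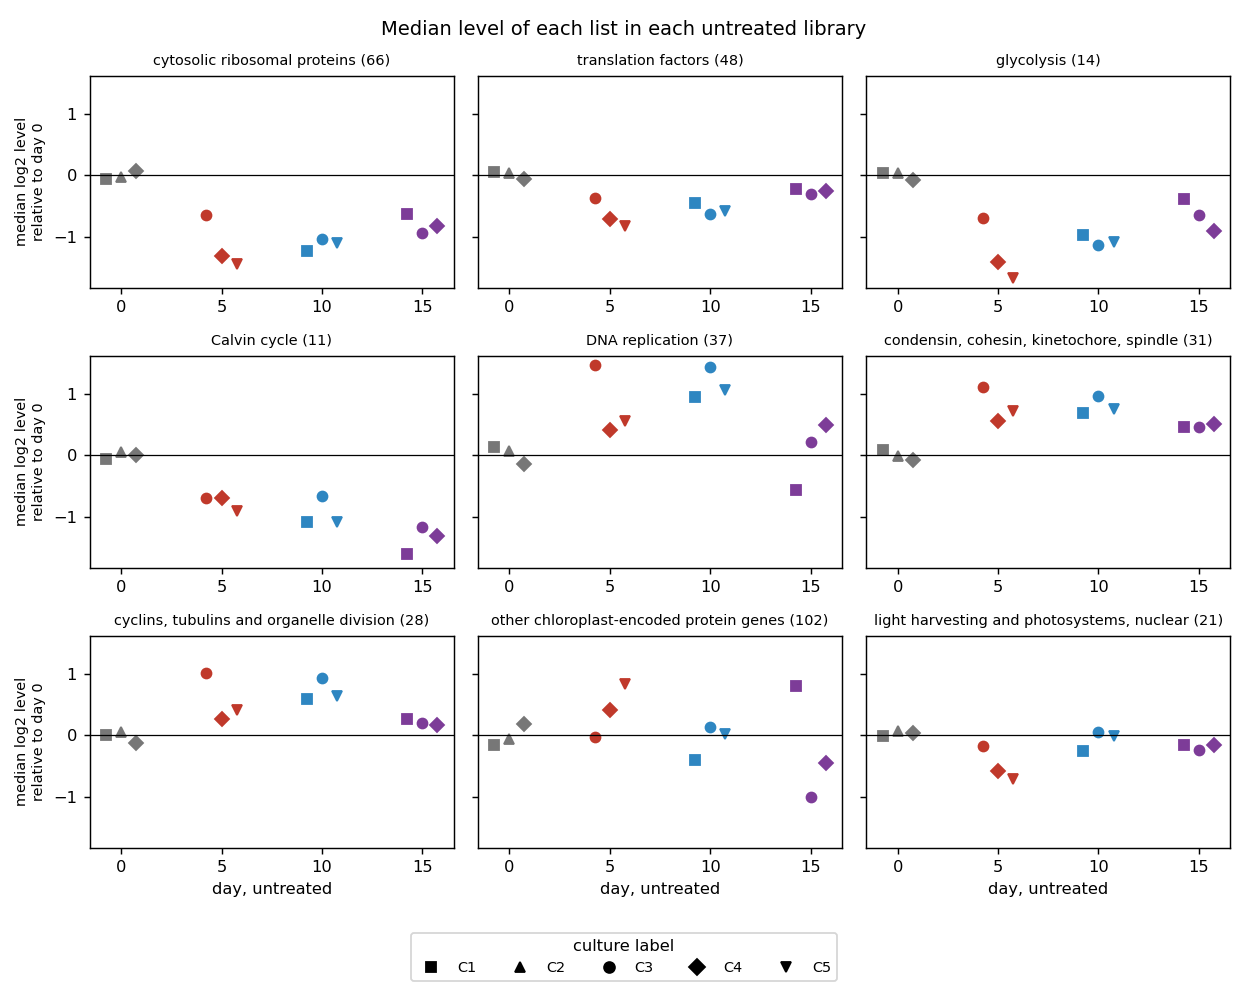
Median log2 level of 9 gene groups (panels, number of genes tested in brackets) relative to the day 0 mean, by day of the untreated cultures (horizontal), 1 point per library with symbols for the culture labels. Ribosomal proteins are below day 0 in every later library, and DNA replication is highest in C3 of day 5.

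Cultures with nickel were sampled on day 5 too, and their values are given side by side because all are set against the same day 0 libraries. Relative to day 0, cytosolic ribosomal proteins had medians of -0.61, -0.70 and -0.72 at 1 mM NiSO4 and -0.27, -0.88 and -0.97 at 3 mM, beside -0.65, -1.30 and -1.44 untreated. For DNA replication the medians were 1.58, 1.57 and 1.41 at 1 mM and ranged between 1.30 and 1.53 at 3 mM, beside 1.46, 0.41 and 0.56 untreated. In both groups C3 of the untreated cultures lay nearer to the nickel libraries than C4 and C5 did. *CMS155C*, the probable zinc transporter, averaged 102 ± 53.9 CPM at 1 mM and 138 ± 41.8 CPM at 3 mM, beside 7.26 ± 1.19 CPM untreated on day 5 and 67.1 ± 52.4 CPM on day 0 (SD, n = 3 each).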

How the data were processed

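The study grew *C. merolae* with or without NiSO4, extracted RNA with TRIzol, selected poly(A) RNA and sequenced paired-end libraries. The authors deposited a table of raw counts per gene, made from reads trimmed and aligned to the alga's genome; the submitters' processing notes name Trimmomatic 0.39, HISAT2, GATK, HTSeq 0.9.1 and DESeq2 1.38.3, without the role of each, and the study's methods give another HTSeq version. The study's methods state that counting used strand. The annotation used here did not give the strand of the gene models, so which overlapping models lie on the same strand was not checked. Overlaps are stated above for some genes only. Of the other genes named above, *CMJ027C* shared 846 bases with another RefSeq model, *CMI038C* 656, *CMT028C* 558 and *CMD025C* 140. Some others shared 40 or fewer. Groups and culture labels come from the sample titles.

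Counts were fitted in R 4.3.3 with edgeR 4.0.16: genes were kept by filterByExpr, which removed 188 of 4984, library sizes were scaled by TMM, and 1 coefficient per condition was fitted over all 29 libraries (quasi-likelihood F test, Benjamini-Hochberg over 4796 genes, adjusted p under 0.05, no minimum fold change). Day 5 minus day 0 was the main contrast, and differences between steps were contrasts of the same fit. The chloroplast share was tested by exact permutation. All pairs of the 6 libraries differed by more than sampling noise. Gene groups were 34 lists made from words in RefSeq descriptions and from loci in the study's text, and are given as counts and medians with no test; members and lists were chosen with earlier results of these data known. Named were the 10 largest rises and 10 largest falls among DEGs with no overlap of days and a mean of at least 10 CPM, up to 2 higher and 2 lower DEGs of smallest adjusted p per list (where a list had none, its gene of smallest p), and a few loci of the study. Alternatives used limma 3.58.1 and DESeq2 1.42.0, other filters, fewer libraries, a replicate block and leaving out each library. The fit was tested on simulated data, in which all libraries of a condition shared the same mean. No simulated library stood apart from its group as C3 of day 5 did, so that test cannot speak to calls that depend on C3. No sequences were at hand, and none are shown.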

Additional observations from a re-analysis of the deposited data

Results flagged for a closer look

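The change over days 0 to 5 differed from the change over days 5 to 10 in 566 genes, with a larger rise (or smaller fall) in the first step in 320 and a larger fall (or smaller rise) in 246. It differed from the change over days 10 to 15 in 1847 genes. These results stand out because a test of the difference itself, in the same edgeR fit, found that the steps were not equal. The first count rested on the libraries and the fit: 9 genes passed in the fit on the 12 untreated libraries, and 21 and 50 without C5 or C4 of day 5. The second was 1078 in the 12-library fit. The first pair of steps shares the day 5 libraries, so a library of day 5 that is off moves both steps in opposite directions; the second pair shares no library.

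Of the 135 genes chosen by the naming rule, 75 passed that first test at an adjusted p under 0.05, and 22 did so under 0.01. Over all genes tested, 11.8% passed at 0.05. Most of the named genes were picked by their change or p between days 0 and 5, and the step test reuses those libraries. A high share of passes among them is therefore largely built in. The difference between steps is given on the log2 scale, and a positive value is the larger rise over days 0 to 5. It was positive in *CML168C* (3.44), *CMC125C* (3.35), *CMR290C* (4.44), *CMN051C* (2.85), *CMT312C* (2.77), *CMT072C* (2.74), *CME102C* (2.80), *CMV027C* (3.17), *CMV026C* (3.00), *CMF068C* (1.53), *CMS422C* (2.07), *CMG189C* (1.96), *CMN183C* (1.35), *CMS128C* (1.42) and *CMT134C* (1.60). It was negative in *CMI286C* (-5.32), *CMH019C* (-5.57), *CMI304C* (-2.54), *CMS351C* (-2.03), *CMI112C* (-2.13), *CMI233C* (-1.90) and *CMS031C* (-1.88). Glutamine synthetase (*CMI233C*) and the UVR8-like gene *CMH019C* fell over days 0 to 5, and their means were higher on day 10 than on day 5. The day 10 means were 4454 ± 344 and 10.0 ± 5.44 CPM, beside 3866 ± 904 and 4.25 ± 2.06 CPM on day 5 (SD, n = 3 each). The change over days 5 to 10 alone was not tested.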

How the results depend on the processing

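Leaving out 1 library at a time gave 667 to 1165 higher and 629 to 1079 lower genes, the lowest counts without C5 of day 5 and the highest without C3 of day 5. The count of genes whose first step differed from the second ran between 21 and 1674 over those fits. TMM or DESeq2 size factors, DESeq2's Wald test (959 higher, 1001 lower), the filters on low counts, nuclear genes alone and a fold change minimum of 1.5 left the counts of higher and lower genes within 1.5 times their values. A fit on the 12 untreated libraries alone called 432 genes higher and 640 lower. It called 9 genes for the first against the second step and 1078 for the first against the last. A fit on the 6 libraries alone called 364 higher and 569 lower. Fits on fewer libraries have fewer degrees of freedom and also a different pooled spread. The part of each in the lower counts was not tested. Higher genes were 51.2% of calls over all 29 libraries, 40.3% over the 12 and 39.0% over the 6. Limma's voom with sample quality weights called 1732 higher and 1503 lower genes. It called 2900 genes for the first against the second step and 2974 for the first against the last. Its weights were 0.106, 1.30 and 2.27 for C3, C4 and C5 of day 5. For C1, C2 and C4 of day 0 they were 2.41, 1.83 and 0.235. C3 of day 5 and C4 of day 0 thus counted least of these libraries. The cause of the higher counts was not tested. Of the 1904 DEGs, 1864 were among the voom calls, 899 among those of the 6 libraries and 1071 among those of the 12.

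The labels do not say that a culture label marks the same flask on different days, and no pairing was assumed. The deviations of same-labelled untreated libraries from their group means correlated between -0.257 and 0.246. The highest value was that of C4 of day 0 with C4 of day 5, the only label shared by the compared days. From so few libraries these correlations cannot decide whether the libraries are paired. With the culture label as a replicate block in the 12 untreated libraries, which leaves 4 residual degrees of freedom, edgeR called 0 genes higher and 0 genes lower. It gave 1002 genes an unadjusted p under 0.05, with 0.063 the smallest adjusted p, although 1902 of the 1904 DEGs kept their sign; both step comparisons gave 0 under the block (446 and 938 genes at an unadjusted p under 0.05).

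Of 131 called genes chosen by the naming rule, 100 were called in every fit that left out a library. Reversals were limited to genes that were not called. *CMG018C* had a log2 fold change of -0.10 under voom and, with libraries left out, -0.21 (without C4 of day 0) to 1.16; *CMG019C* ranged between -3.47 and 0.22 (without C1 of day 0), and *CMG021C* between -0.0040 (without C4 of day 5) and 0.97. The medians of 8 gene groups changed sign under some alternative. The difference in chloroplast share was 0.507 to 1.46 percentage points when a library was left out. At totals of 2797232 to 3356050 counts a library, genes at a few counts, such as *CMG018C* and *CMG019C*, could not show a difference of modest size.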

Other observations

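The rises of *CML168C* and *CMT072C* led to a look at the other genes of branched-chain amino acid breakdown, 7 in all, chosen after these values were seen and therefore given as values only. Besides those 2, *CMT071C*, the 3-methylcrotonyl-CoA carboxylase that follows isovaleryl-CoA dehydrogenase in leucine breakdown and is the neighbour of *CMT072C* on chromosome 20, had 333, 535 and 504 CPM on day 5, against 313, 313 and 249 CPM on day 0 (log2 fold change 0.65 ± 0.20, adjusted p = 0.011), a call kept in 3 of the 6 fits that left out a library. Of the aminotransferases at the head of the pathway, *CMO144C* had 231, 148 and 146 CPM on day 5, against 263, 246 and 294 CPM on day 0 (log2 fold change -0.61 ± 0.18, adjusted p = 0.0095), kept in 4 of those 6 fits, and *CMN181C* had 135, 227 and 207 CPM on day 5, against 100.4, 111 and 103 CPM on day 0, which did not pass the test (adjusted p = 0.06). *CMH008C*, the alpha subunit of the same dehydrogenase complex as *CML168C*, had 145, 148 and 153 CPM on day 5, against 151, 138 and 116 CPM on day 0 and was not called (adjusted p = 0.3), nor was *CMC009C*, a 3-hydroxyisobutyryl-CoA hydrolase of valine breakdown (adjusted p = 0.15). The E1 alpha and beta subunits, which work as a pair, were thus not both called.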
